A study of Mus musculus with 235 samples.

Results

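Mthfd2 encodes a mitochondrial enzyme of the folate cycle. Described here are its messenger RNA and that of 9 genes of the same or neighbouring routes, in 8 brain regions of mice given dexamethasone, a synthetic glucocorticoid. The 10 genes are Mthfd2, Mthfd1l, Shmt2 and Aldh1l2 (mitochondrial one-carbon enzymes), Phgdh, Psat1 and Psph (serine synthesis), Atf4 and Atf5 (transcription factors of the amino acid and stress response) and Asns (an ATF4 target), out of 27998 genes counted. Mthfd2 was chosen for the size of its change and for how that change differed among regions, so its values below are a description with no test. The other 9 were chosen by pathway, with earlier results of these data known, and the question asked is whether they changed where Mthfd2 did.

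In the folate cycle, serine hydroxymethyltransferases move a carbon unit from serine to tetrahydrofolate. In mitochondria, SHMT2 makes this transfer, MTHFD2 oxidises the unit, MTHFD1L releases it as formate, and ALDH1L2 oxidises it to carbon dioxide. PHGDH, PSAT1 and PSPH catalyse, in that order, the synthesis of serine from a glycolytic intermediate, which in brain is largely an astrocyte activity. ATF4 is translated when eIF2 is phosphorylated, and it activates genes of serine synthesis, mitochondrial folate enzymes and Asns, so these genes often move together in cultured cells under amino acid shortage.

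The animals were 30 male C57Bl/6 mice, 3 months old. Of these, 15 received dexamethasone at 10 mg/kg into the peritoneum and 15 received saline as vehicle, and tissue was taken 4 h later. No allele or other treatment is named in the labels. Punches labelled PFC, dCA1, vCA1, dDG, vDG, AMY, PVN and CER gave 1 library per animal and region. The dexamethasone arm held 13 libraries in dCA1 and 14 in PFC, the vehicle arm held 14 in PVN and 14 in vCA1, and the other 12 groups held 15 each. Depth per library was 268538 to 1451422 counts (median 742957). A gene with 0 counts could therefore have had up to 1.97 to 13.0 CPM (counts scaled to a common library size, corrected with TMM factors), depending on the library, and such limits cover counting error only.

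Marker genes went against some of the labels. In the 15 vehicle libraries of CER no count of the granule cell marker Gabra6 was found (0 counts), and the Purkinje cell marker Pcp2 had 7. Of the 6 cerebellar markers listed, Cbln3 was also near 0, at 2.45 ± 2.82 CPM (SD, n = 15). Cbln1 stood at 10.2 ± 13.4, Car8 at 12.2 ± 9.15 and Zic1 at 97.2 ± 93.7 CPM (SD, n = 15), and these 3 were also found in the vehicle libraries of PFC and AMY, at 3.96 to 96.1 CPM. Outside CER, 7 libraries had at least 10 counts of Gabra6, namely 3 vehicle and 2 dexamethasone libraries of vDG, 1 vehicle library of vCA1 and 1 dexamethasone library of PFC. Prox1, a gene of dentate granule cells, stood at 521 ± 142 CPM (SD, n = 15) in vehicle libraries of dCA1 and at 462 ± 253 CPM (SD, n = 15) in those of dDG. Regions are called by their labels. Where leaving out the 7 libraries with Gabra6, or taking the dentate level as a covariate in dCA1 and vCA1, changed a call, the value is given beside it.

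The stretches upstream of Mthfd2 and Asns are shown because Mthfd2 is the member with the largest change and Asns the member whose promoter holds an ATF4 motif. Each is the 250 bases before the RefSeq start (GRCm38.p6, minus strand, 5′ to 3′), at chr6:83317605-83317854 for Mthfd2 and chr6:7693210-7693459 for Asns. Capitals mark matches to TGATGNAA, a C/EBP-ATF element, or to AGAACA, a single arm of the glucocorticoid receptor element.
Mthfd2: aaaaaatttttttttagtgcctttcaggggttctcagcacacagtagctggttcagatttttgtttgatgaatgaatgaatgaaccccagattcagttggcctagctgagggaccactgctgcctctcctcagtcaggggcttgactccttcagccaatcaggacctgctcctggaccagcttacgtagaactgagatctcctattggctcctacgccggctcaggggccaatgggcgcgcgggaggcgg
Asns: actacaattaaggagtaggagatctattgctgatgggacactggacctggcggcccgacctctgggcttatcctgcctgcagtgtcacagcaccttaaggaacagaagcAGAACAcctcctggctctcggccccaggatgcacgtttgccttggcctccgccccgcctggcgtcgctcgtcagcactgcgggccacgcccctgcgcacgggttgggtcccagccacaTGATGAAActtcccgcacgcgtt
Of the 10 members, 9 had a promoter entry, with 11 entries in all. Both strands were searched. TGATGNAA was found in Asns alone, 23 bases before the start, and in 3.45% of 32851 promoters. AGAACA was found in Asns, 141 bases before the start, and in Psph, 159 bases before it, and in 16.1% of promoters. The full glucocorticoid element, GNACA and TGTNC with 3 bases between, which can overlap AGAACA, was in 0 of the 11 member entries and in 0.387% of promoters. The gene model in the count table starts 8304 bases upstream of the RefSeq start of Mthfd2, and this longer start has no sequence here. A match in these letters is not a bound site, and a window with no match says nothing of binding elsewhere.

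Mthfd2 (ENSMUSG00000005667, chromosome 6, 83305691 to 83325908, minus strand, mm10) was higher after dexamethasone in all 8 regions. In PFC, dCA1, vCA1, dDG and vDG the level was several times that of vehicle, with log2 fold changes from 2.59 to 2.86, and in AMY, PVN and CER they lay between 0.90 and 1.299. The count table held 6909 counts of Mthfd2 in all, and no library was at 0.

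In PFC the 15 vehicle libraries lay between 1.596 and 14.7 CPM with a median of 8.47, and the 14 dexamethasone libraries between 41.7 and 78.2 with a median of 59.8. The means were 8.01 ± 3.50 and 59.6 ± 11.4 CPM (SD), a log2 fold change of 2.83 ± 0.15 (SE). The lowest dexamethasone library of PFC was thus far above the highest vehicle library.
In dCA1 vehicle libraries ran from 3.58 to 17.3 CPM with a median of 11.4 (n = 15), and dexamethasone libraries from 51.4 to 117 with a median of 74.6 (n = 13), a log2 fold change of 2.86 ± 0.16 (SE). In vCA1 they ran from 1.57 to 15.9 CPM with a median of 13.1 (n = 14) and from 56.3 to 108 with a median of 80.7 (n = 15), a change of 2.69 ± 0.15 (SE). Both pairs of arms were separate, and the levels of the dCA1 and vCA1 libraries covered nearly the same span.
In dDG vehicle libraries ran from 3.28 to 17.3 CPM with a median of 10.7, and dexamethasone libraries from 44.7 to 118 with a median of 59.1 (n = 15 each), a log2 fold change of 2.59 ± 0.17 (SE). In vDG they ran from 6.43 to 27.2 CPM with a median of 15.4 and from 55.7 to 174 with a median of 85.1 (n = 15 each), a change of 2.79 ± 0.18 (SE). A single vDG library at 174 CPM stood above the rest of its group, and the arms of both regions did not overlap.

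The arms overlapped in the other 3 regions. In AMY vehicle libraries ran from 9.28 to 24.5 CPM with a median of 15.6, and dexamethasone libraries from 21.7 to 50.6 with a median of 43.1 (n = 15 each), a log2 fold change of 1.299 ± 0.14 (SE). Of the dexamethasone libraries of AMY, 13 of 15 were above the highest vehicle library. In PVN they ran from 11.4 to 32.3 CPM with a median of 19.3 (n = 14) and from 29.3 to 58.2 with a median of 40.4 (n = 15), a change of 1.08 ± 0.13 (SE), with 12 of 15 above the highest vehicle library. In CER vehicle libraries ran from 14.7 to 54.4 CPM with a median of 35.1, and dexamethasone libraries from 37.3 to 89.4 with a median of 64.5 (n = 15 each), a change of 0.90 ± 0.15 (SE), with 11 of 15 above. Genes with dexamethasone libraries wholly above vehicle made up 0.315% of those tested in PFC, 0.172% in dCA1, 0.285% in vCA1, 0.105% in dDG, 0.183% in vDG, 0.348% in AMY, 0.367% in PVN and 0.576% in CER. As Mthfd2 was chosen on this contrast, nothing is read from that share.

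**Figure D1:**
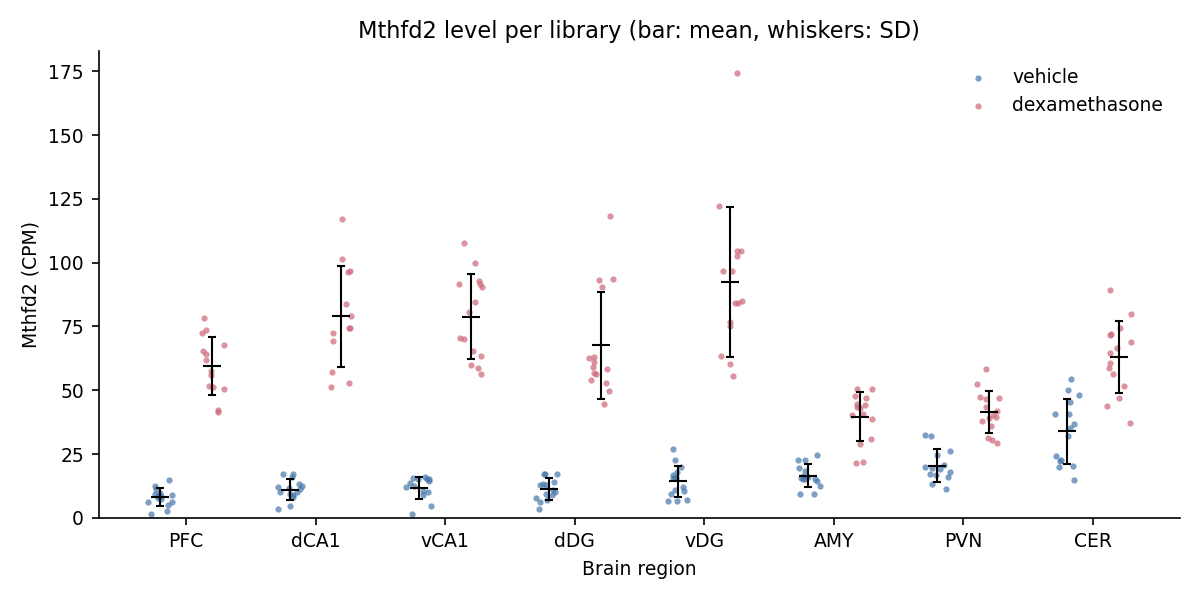
Mthfd2 level (CPM, vertical axis) in each library of the 8 regions (horizontal axis), vehicle in blue and dexamethasone in red, with the mean and SD of each group in black. The arms are separate in the 5 regions on the left and overlap in AMY, PVN and CER, where vehicle levels are higher.

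The regions differed on both sides of the contrast. In vehicle libraries the mean level fell in the order CER (33.8 ± 12.6 CPM), PVN (20.5 ± 6.32), AMY (16.5 ± 4.48), vDG (14.3 ± 6.09), vCA1 (11.8 ± 4.31), dDG (11.2 ± 4.22), dCA1 (11.1 ± 4.01) and PFC (8.01 ± 3.50, SD). Only CER and PVN, as neighbours in that order, differed by more than the larger of their SDs. After dexamethasone the order was vDG (92.5 ± 29.3 CPM), dCA1 (79.0 ± 19.8), vCA1 (78.9 ± 16.5), dDG (67.6 ± 21.0), CER (62.9 ± 14.1), PFC (59.6 ± 11.4), PVN (41.4 ± 8.15) and AMY (39.6 ± 9.55, SD), and only PFC and PVN differed by more than the larger SD. A fold change divides by the vehicle level, so the difference in CPM was also taken. It was 51.6 ± 3.17 CPM (SE) in PFC, 67.9 ± 5.59 in dCA1, 67.1 ± 4.41 in vCA1, 56.4 ± 5.52 in dDG and 78.2 ± 7.72 in vDG, against 23.1 ± 2.72 in AMY, 20.9 ± 2.70 in PVN and 29.1 ± 4.88 in CER. The same 3 regions were lowest on both scales.

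The values of this paragraph come from the contrasts on which Mthfd2 was chosen, and they describe it without supporting the choice. Its F statistic for a response that differed among the 8 regions was 30.1, the first in rank of 11053 genes. Its log2 fold changes spanned 1.96 between regions, against a median span of 0.32 over 7923 other genes tested in all 8 regions with a mean of at least 5 CPM, and 1 of these spanned at least as much. Mthfd2 was higher in the dexamethasone arm in 32 of 32 combinations of a region and a date of punching with at least 2 libraries in each arm, by 0.71 to 3.33 on the log2 scale, and in 32 of 32 combinations of region and plate, by 0.52 to 3.70. The remaining date of the 5 had 1 vehicle library per region, with 1 or 2 dexamethasone libraries, and Mthfd2 was higher there in 8 of 8 regions, by 1.19 to 3.13. Without the 7 libraries that had at least 10 counts of Gabra6, the log2 fold change of Mthfd2 was 2.80 in PFC, 2.71 in vCA1 and 2.94 in vDG. In bulk tissue, more cells expressing a gene and more RNA per cell cannot be told apart.

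Of the other 9 members, 6 had enough counts to be tested in at least 1 region, and none of these passed in any region tested. By the quasi-likelihood test of edgeR, with a threshold of 0.05 on the adjusted p, 0 of 43 tests of a member in a region passed, 0 of 6 in PFC, PVN and CER and 0 of 5 in each other region. Of all genes tested, 6.14% passed in PFC, 4.68% in dCA1, 5.45% in vCA1, 3.7% in dDG, 3.93% in vDG, 5.62% in AMY, 5.63% in PVN and 6.18% in CER. Over these 43 tests the log2 fold changes lay between -0.29 and 0.38, with a median of -0.05, and the medians over all genes tested lay between -0.02 and 0.00. The 95% intervals of the 43 reached from -0.56 to 0.80, and the smallest change of Mthfd2 was 0.90, with an interval from 0.60 to 1.21. An unadjusted p under 0.05 was reached by 3 of the 43 tests (6.98%), against 11.7% to 15.3% of all genes in the 8 regions, and the smallest adjusted p was 0.254. DESeq2 also called 0 of them, as did edgeR with the replicate number as a block. With that block 4.65% to 8.02% of all genes tested passed, by region. In dDG 543 genes passed (6.35%) against 316 without it, and in vCA1 451 (4.94%) against 497. The arms overlapped in all 43, as they did for nearly all genes: arms without overlap, in either direction, made up 0.413% of genes in PFC, 0.195% in dCA1, 0.329% in vCA1, 0.117% in dDG, 0.226% in vDG, 0.43% in AMY, 0.399% in PVN and 0.62% in CER. The other 29 combinations of a member and a region had too few counts to be tested, among them all 24 of Shmt2, Phgdh and Aldh1l2. In the fit of all genes their log2 fold changes lay between -0.64 and 0.91, and 3 of the 29 intervals reached past 0.90, those of Aldh1l2 in PFC (up to 1.51), Phgdh in PVN (up to 1.04) and Mthfd1l in vCA1 (up to 1.02). The unadjusted edgeR p in that fit was 0.00306 for Aldh1l2 in PFC (adjusted 0.0677). It was 0.0276 for Mthfd1l in vCA1 (adjusted 0.284), and above 0.05 for the rest of the 29.

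**Figure D2:**
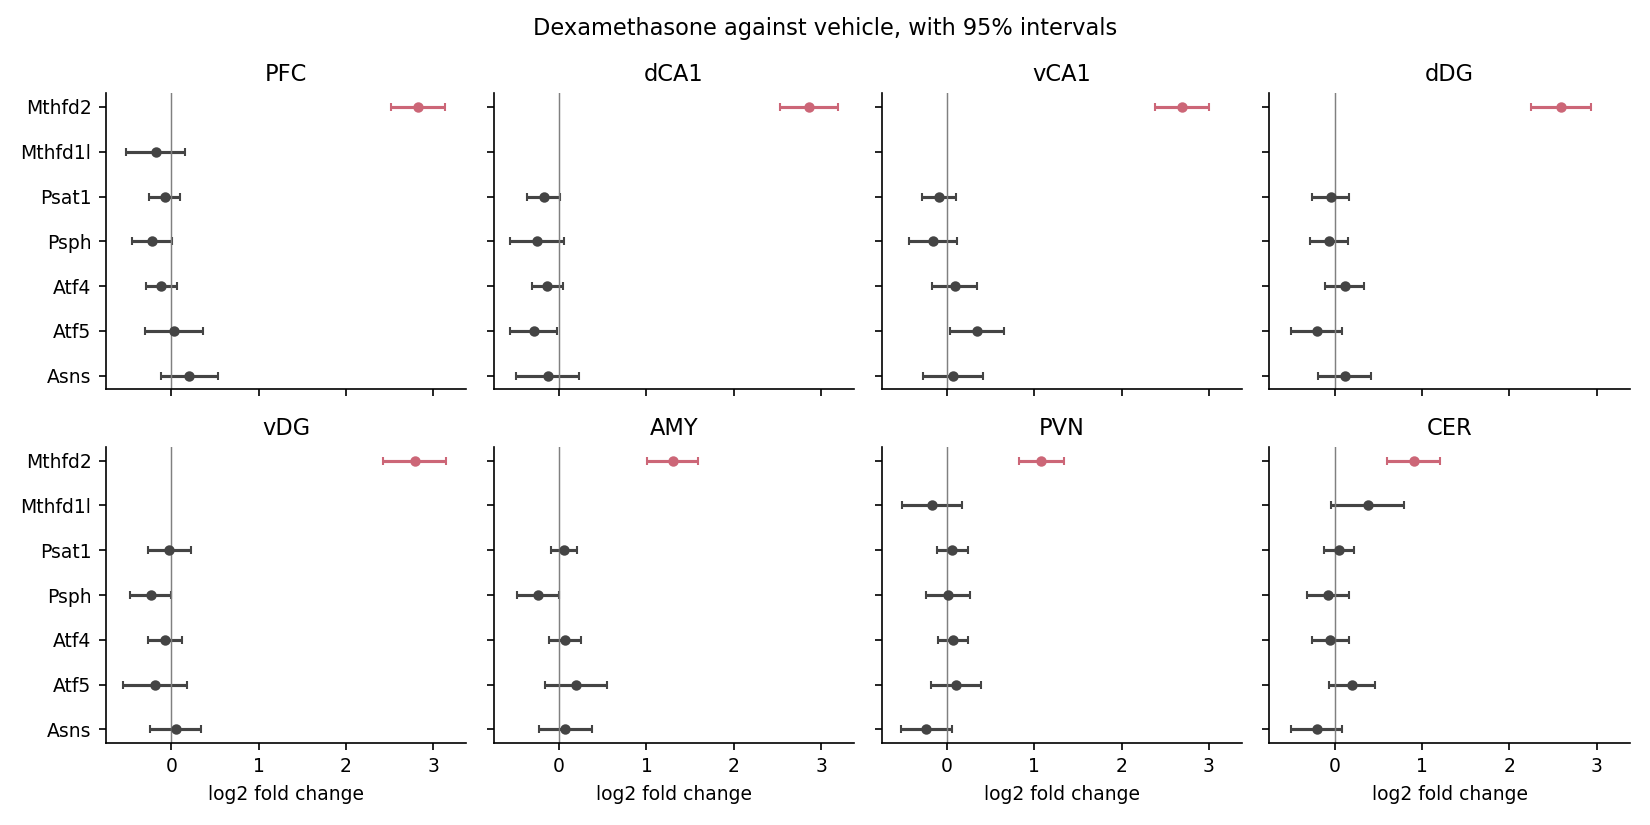
Log2 fold change of dexamethasone against vehicle (horizontal axis) with its 95% interval for Mthfd2 (red) and the other members tested (grey), 1 panel per region. Mthfd2 lies between 0.90 and 2.86 and the members tested otherwise lie between -0.29 and 0.38.

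Among the mitochondrial one-carbon enzymes, Mthfd1l (ENSMUSG00000040675, chromosome 10, 3973118 to 4167081, plus strand) passed the count filter in 3 regions. In CER its 15 vehicle libraries ran from 0 to 18.1 CPM with a median of 11.4, and its 15 dexamethasone libraries from 7.97 to 25.9 with a median of 14.1. The log2 fold change was 0.38 ± 0.21 (SE; edgeR adjusted p 0.457), with an interval from -0.04 to 0.80. In PFC the value was -0.18 ± 0.17 (SE; adjusted p 0.772) and in PVN -0.17 ± 0.17 (SE; adjusted p 0.77). In vCA1, where it was below the filter, the fit of all genes gave 0.54 ± 0.24 (SE; adjusted p 0.284), with means of 6.84 ± 3.64 and 10.5 ± 3.49 CPM (SD).
Shmt2 (ENSMUSG00000025403, chromosome 10, 127517123 to 127522444, minus strand) was low, with group means from 6.91 to 10.2 CPM and 1428 counts in all. Of its 2305 exon bases, 30 overlap Ndufa4l2 on the other strand. In the fit of all genes its log2 fold changes ran from -0.25 in AMY to 0.18 in dCA1, with intervals from -0.72 to 0.65.
Aldh1l2 (ENSMUSG00000020256, chromosome 10, 83487450 to 83534140, minus strand) had 1112 counts in all. In PFC its 15 vehicle libraries ran from 0 to 7.61 CPM with a median of 3.29, and its 14 dexamethasone libraries from 1.41 to 13.6 with a median of 5.79, and 5 of the 14 were above the highest vehicle library. The log2 fold change there, in the fit of all genes, was 0.91 ± 0.30 (SE; edgeR adjusted p 0.0677), from 42 counts in the vehicle arm and 70 in the dexamethasone arm. In the other 7 regions it lay between -0.64 and 0.03.

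In serine synthesis, Phgdh (ENSMUSG00000053398, chromosome 3, 98313170 to 98339990, minus strand), the first enzyme, had only 1088 counts in all and was at 0 in 8 libraries. Its group means were 4.53 to 7.61 CPM, and its log2 fold changes in the fit of all genes ran from -0.46 in vCA1 to 0.45 in PVN, with intervals from -1.04 to 1.04. The upper bounds lay between 0.12 in vCA1 and 0.83 in vDG in 7 regions, and at 1.04 in PVN.
Psat1 (ENSMUSG00000024640, chromosome 19, 15904678 to 15947337, minus strand), the aminotransferase of the route, had 40432 counts. In PFC its vehicle libraries ran from 167 to 326 CPM with a median of 209 (n = 15) and its dexamethasone libraries from 164 to 271 with a median of 223 (n = 14). In dCA1 they ran from 173 to 321 CPM with a median of 253 (n = 15) and from 159.7 to 279 with a median of 227 (n = 13). The arms overlapped in both regions, and the highest dexamethasone library was below the highest vehicle library in each. The log2 fold change was -0.08 ± 0.09 (SE) in PFC and -0.18 ± 0.09 (SE; edgeR adjusted p 0.431) in dCA1, and the 8 intervals of Psat1 reached from -0.37 to 0.24.
Psph (ENSMUSG00000029446, chromosome 5, 129765558 to 129787449, minus strand), the phosphatase that completes serine synthesis, had a negative log2 fold change in 7 of 8 regions and passed in 0. In vDG its vehicle libraries ran from 27.4 to 53.5 CPM with a median of 40.3 and its dexamethasone libraries from 26.3 to 46.4 with a median of 31.7 (n = 15 each). That change was -0.24 ± 0.11 (SE; edgeR adjusted p 0.41), and the intervals of Psph over the 8 regions reached from -0.56 to 0.26.

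Atf4 (ENSMUSG00000042406, chromosome 15, 80255184 to 80257540, plus strand), which is regulated mainly in translation, was tested in 8 regions. In PFC its vehicle libraries ran from 136 to 246 CPM with a median of 187 (n = 15) and its dexamethasone libraries from 116 to 215 with a median of 179 (n = 14), a log2 fold change of -0.11 ± 0.09 (SE; edgeR adjusted p 0.683). In vCA1 the dexamethasone libraries ran from 125 to 482 CPM with a median of 177, against 149 to 225 with a median of 183 in vehicle, and the library at 482 stood apart. Over the 8 regions the intervals of Atf4 reached from -0.32 to 0.35.
Atf5 (ENSMUSG00000038539, chromosome 7, 44812256 to 44816658, minus strand), a related factor of the mitochondrial stress response, shares 82 of its 1993 exon bases with Nup62 on the other strand. In dCA1 its vehicle libraries ran from 29.8 to 86.5 CPM with a median of 44.8 (n = 15) and its dexamethasone libraries from 24.4 to 52.7 with a median of 36.8 (n = 13), a log2 fold change of -0.29 ± 0.13 (SE; edgeR adjusted p 0.308). In vCA1 they ran from 19.3 to 38.6 CPM with a median of 24.8 (n = 14) and from 20.6 to 67.2 with a median of 33.4 (n = 15), a change of 0.34 ± 0.15 (SE; edgeR adjusted p 0.254). The signs differed, and neither value passed.
Asns (ENSMUSG00000029752, chromosome 6, 7675169 to 7693254, minus strand) makes asparagine and carries the motif shown above. In PFC its vehicle libraries ran from 6.08 to 31.7 CPM with a median of 23.4 (n = 15) and its dexamethasone libraries from 12.6 to 42.1 with a median of 26.2 (n = 14), a log2 fold change of 0.20 ± 0.16 (SE; edgeR adjusted p 0.685). Its changes over the 8 regions ran from -0.24 in PVN to 0.20 in PFC, with intervals from -0.53 to 0.53.

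**Figure D3:**
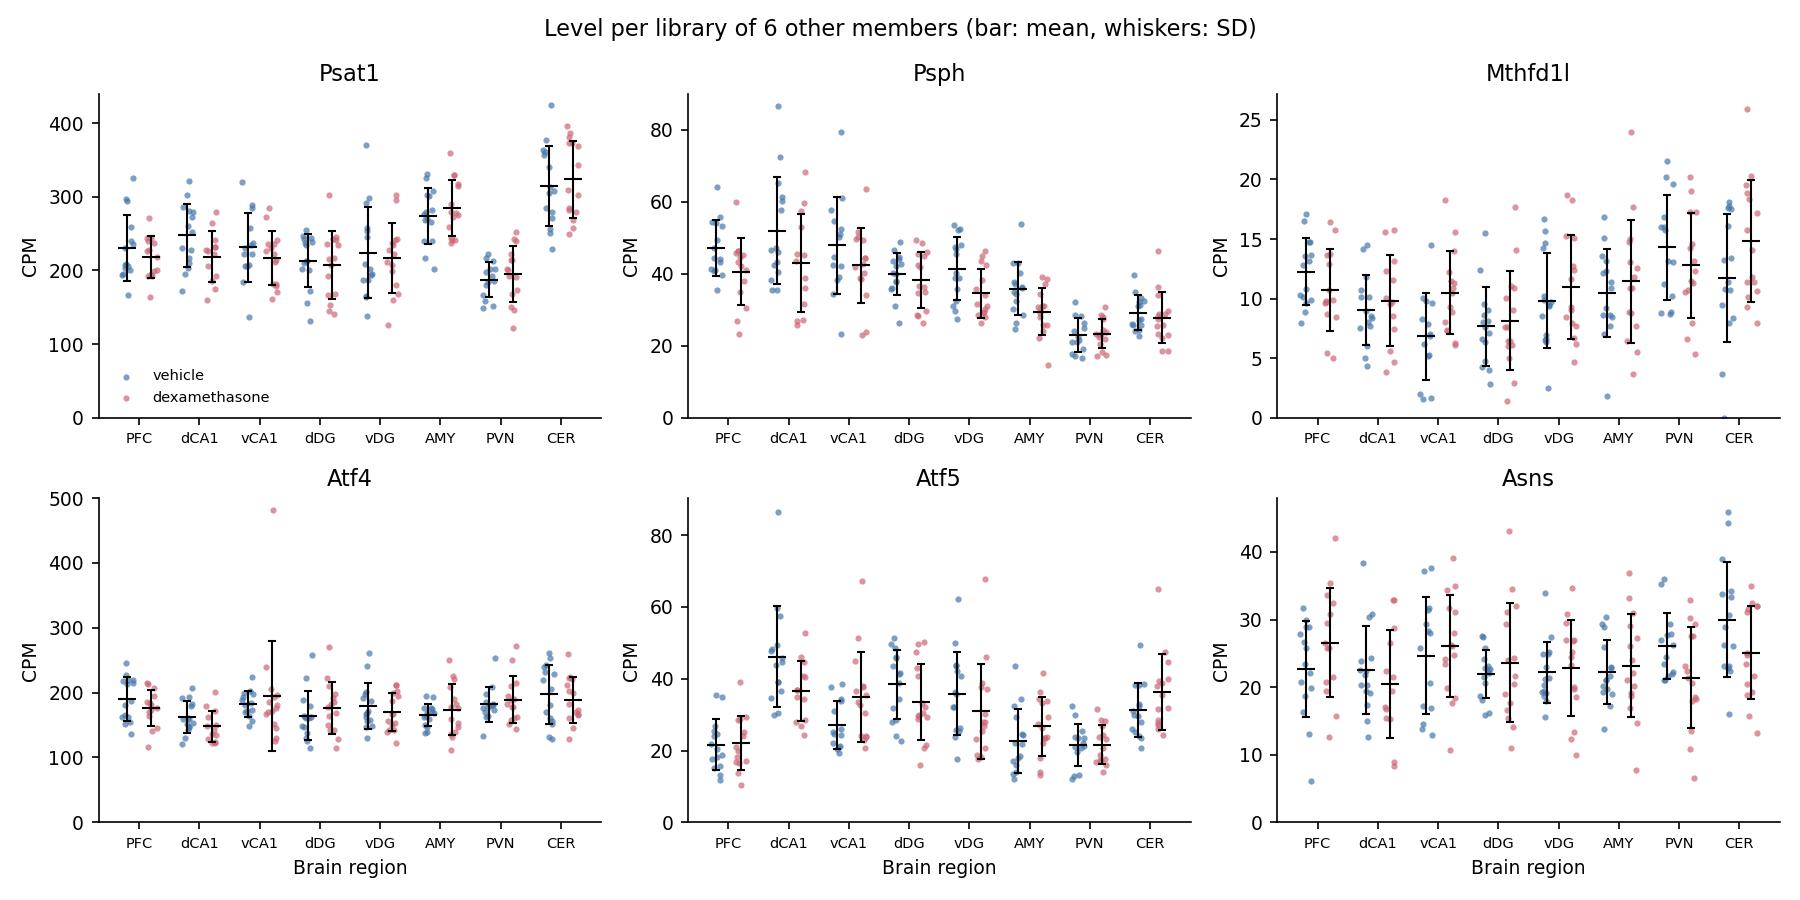
Level (CPM, vertical axes) of 6 other members in each library of the 8 regions, vehicle in blue and dexamethasone in red, with the mean and SD in black. The arms overlap in every panel and region, and 1 dexamethasone library of vCA1 stands at 482 CPM for Atf4.

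Whether a member responded differently among regions was tested with the interaction of region and treatment over all libraries. Of the 8 other members that could be tested, 0 passed, against 129 of 11053 genes (1.17%). The largest statistics were those of Aldh1l2 (F = 2.19, p 0.0359, edgeR adjusted p 0.62) and Atf5 (F = 2.16, p 0.0386, edgeR adjusted p 0.634). Unadjusted, 7.01% of all genes had a p under 0.05.

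The levels in vehicle tissue, in contrast, did differ among regions for the 6 other members tested, Mthfd1l, Psat1, Psph, Atf4, Atf5 and Asns, as they did for 73.3% of 10451 genes. Psat1 was highest in CER (315 ± 54.8 CPM) and lowest in PVN (187 ± 23.7, SD), with an edgeR adjusted p of 5.36e-10 among the 8 regions. Psph was highest in other regions, with 51.9 ± 14.9 CPM in dCA1, 47.9 ± 13.5 in vCA1 and 47.2 ± 7.77 in PFC, and was lowest in CER (29.2 ± 4.78) and PVN (22.9 ± 4.74, SD; edgeR adjusted p 2.19e-17). Atf5 was highest in dCA1 (46.1 ± 14.1 CPM) and lowest in PVN (21.5 ± 5.89, SD; edgeR adjusted p 6.44e-14), and Mthfd1l was highest in PVN (14.3 ± 4.38) and lowest in vCA1 (6.84 ± 3.64, SD; edgeR adjusted p 2.44e-05). Neighbours in these orders differed by less than the larger SD except CER and PVN for Psph. Atf4 ranged from 162 ± 24.6 CPM in dCA1 to 197 ± 45.6 in CER (SD; edgeR adjusted p 0.0234), and Asns from 21.9 ± 3.62 in dDG to 29.99 ± 8.51 in CER (SD; edgeR adjusted p 0.0497). Asns missed the threshold with the animal as a block (edgeR adjusted p 0.0513), with no filter (0.0865), with a filter at 5 CPM (0.0642), without the libraries that had an RNA integrity number (RIN) under 4 (0.0783) and without 7 libraries that the submitters' normalized tables do not list (0.107). Atf4 missed it without those 7 (edgeR adjusted p 0.0535). CER had the highest vehicle mean of the 8 regions for Mthfd2, Psat1, Atf4 and Asns, and also for Shmt2 and Aldh1l2, which were too low for this test. Among these, CER exceeded the next region by more than the larger SD for Mthfd2 only.

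Within the dexamethasone arm, Mthfd2 was compared with each tested member across animals, as 43 correlations of log2(CPM + 1) in 13 to 15 libraries of a region. After adjustment 0 of the 43 passed, by Pearson's r or Spearman's rho, and r ran from -0.46 to 0.70 with a median of -0.01. For Psat1 in vCA1, r was 0.70 (two-sided permutation p 0.00436, adjusted 0.187) and rho 0.73 (permutation p 0.00317, adjusted 0.136) over 15 libraries. It was 0.70 without the 2 libraries farthest from the median of Mthfd2 and 0.71 with both genes centred on their plate means (adjusted permutation p 0.0937), and 0.63 with the deposited variance-stabilised values of 12 libraries (adjusted permutation p 0.671). For Psph in dCA1, r was 0.25 (adjusted permutation p 0.944), and 0.75 with plate centring (adjusted permutation p 0.0937). Psat1 had a positive r in 6 of 8 regions, Psph in 5 of 8, Asns and Atf4 in 3 of 8 and Atf5 in 2 of 8.

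The other genes of the pathway were read as lists, made with earlier results of these data known, against these shares of all genes. Of all genes tested, the share that rose and the share that fell were 3.86% and 2.28% in PFC, 2.57% and 2.11% in dCA1, 3.41% and 2.04% in vCA1, 2.33% and 1.37% in dDG, 2.64% and 1.29% in vDG, 3.54% and 2.08% in AMY, 3.57% and 2.06% in PVN and 3.9% and 2.28% in CER. Of the other folate enzymes, 1 of 37 tests in the 8 regions passed. Aldh1l1, the cytosolic counterpart of Aldh1l2 and an astrocyte gene, rose in dCA1 from 18.2 ± 10.6 to 27.8 ± 8.32 CPM (SD, n = 15 and 13), by 0.72 ± 0.19 (SE; edgeR adjusted p 0.0174), and was at 0.22 to 0.43 in the other 7 regions. In dCA1, once the dentate level was a covariate, the rise was 0.52 and missed the threshold (edgeR adjusted p 0.0553). The count for this list was 2 with no filter and 2 with date and plate as factors. Mthfd2l, a paralogue with a similar activity in mitochondria, was tested in 7 regions and had log2 fold changes from -0.15 to 0.28. Mthfd1, which handles the same carbon units in the cytosol, was at -0.17 to 0.23 in 8 regions. Neither passed in any of these. The median log2 fold change of the list lay between -0.16 and 0.23 over regions.

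Genes that use the products of the pathway gave 8 rises, all of Mat2a, among 24 tests of the methionine cycle and 0 of 37 for purine synthesis, where Atic had the smallest p (0.0431 in AMY, edgeR adjusted 0.337). Mat2a makes S-adenosylmethionine, the methyl donor that one-carbon units help to renew. In PFC it went from 245 ± 30.4 to 322 ± 43.4 CPM (SD, n = 15 and 14), a log2 fold change of 0.40 ± 0.07 (SE; edgeR adjusted p 0.000164). In PVN it went from 293 ± 41.6 to 475 ± 64.5 CPM (SD, n = 14 and 15), by 0.70 ± 0.08 (SE; edgeR adjusted p 3.32e-09), its largest rise, and in CER by 0.30 ± 0.08 (SE; edgeR adjusted p 0.0176), its smallest. The interaction among regions did not pass for Mat2a (edgeR adjusted p 0.0891), and passed with the animal as a block (0.0338). With the replicate block the list gave 11 rises, the other 3 being those of Cbs, which makes cystathionine from homocysteine, in PFC (0.39), dDG (0.48) and PVN (0.51, largest edgeR adjusted p 0.026). Cbs was named for this change of call, after its values were seen. PVN, where Mat2a rose most, was among the 3 regions with the smallest change of Mthfd2. The next largest rise of Mat2a was in dCA1 (0.63 ± 0.07, SE), where Mthfd2 changed most. CER had the smallest log2 fold change of both genes.

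In glycine cleavage, which feeds the same mitochondrial pool, 3 of 29 tests passed, all as falls of Gldc, the decarboxylase of the complex. Gldc fell in PFC from 31.9 ± 9.05 to 19.9 ± 5.11 CPM (SD, n = 15 and 14), a log2 fold change of -0.69 ± 0.15 (SE; edgeR adjusted p 0.00113). It was at -0.75 ± 0.17 in dCA1 (SE; edgeR adjusted p 0.00315) and at -0.70 ± 0.19 in vCA1 (SE; edgeR adjusted p 0.0131). In vCA1 the fall missed the threshold with the dentate covariate, at -0.68 (edgeR adjusted p 0.105). In dDG and vDG the values were -0.51 and -0.42 and did not pass, though Gldc passed in dDG with the replicate block, at -0.49 (edgeR adjusted p 0.0426), and in AMY, PVN and CER it was too low to be tested, with vehicle means of 16.0, 7.16 and 7.50 CPM. The interaction did not pass (edgeR adjusted p 1.00).
Among amino acid carriers, 3 of 72 tests passed as rises and 2 as falls. Slc38a2, a neutral amino acid carrier, rose in PFC (0.41 ± 0.10), dCA1 (0.31 ± 0.09) and vDG (0.79 ± 0.23, SE; largest edgeR adjusted p 0.0458). In vDG its vehicle libraries ran from 145 to 445 CPM with a median of 243 (n = 15). The dexamethasone libraries there spread widely, from 173 to 1336 CPM with a median of 368 (n = 15). Without the libraries with Gabra6, Slc38a2 missed the threshold in vDG, at 0.84 (edgeR adjusted p 0.0708), and passed in vCA1, at 0.38 (0.0452). With the dentate covariate Slc38a2 missed it in dCA1, at 0.29 (edgeR adjusted p 0.0523). Slc7a11, the cystine carrier and a textbook ATF4 target, fell in PFC (-0.40 ± 0.11) and dDG (-0.66 ± 0.16, SE; largest edgeR adjusted p 0.0134), and with the dentate covariate it also passed in dCA1, at -0.46 (edgeR adjusted p 0.0147). With the replicate block it passed in PVN, at -0.23 (edgeR adjusted p 0.0258).

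In a list of 20 ATF4 target and stress genes, of which 7 or 8 were tested in a region, 20 of 59 tests passed as rises and 2 as falls, with medians per region from -0.04 to 0.13. The rises were those of Gpt2 in 8 regions, Herpud1 in 6 and Cebpb in 6, and the falls those of Vldlr, a lipoprotein receptor, in dCA1 and CER. Gpt2, a mitochondrial alanine aminotransferase, went in PFC from 38.7 ± 12.7 to 55.1 ± 8.05 CPM (SD, n = 15 and 14) and in AMY from 45.8 ± 15.3 to 75.7 ± 18.6 CPM (SD, n = 15 each). Its log2 fold changes were 0.49 ± 0.12 (SE; edgeR adjusted p 0.00812) and 0.70 ± 0.14 (SE; edgeR adjusted p 0.000787), and over regions they ran from 0.46 to 0.70. With the dentate covariate Gpt2 was at 0.33 in dCA1 and missed the threshold (edgeR adjusted p 0.0824). Herpud1, a gene of the endoplasmic reticulum stress response, rose in PFC, vCA1, vDG, AMY, PVN and CER by 0.34 to 0.53. Cebpb, a transcription factor that pairs with ATF4 and is also known as glucocorticoid responsive, rose in the same 6 regions by 0.68 to 1.03, and with the dentate covariate it also passed in dCA1, at 0.40 (edgeR adjusted p 0.0435). With the replicate block both Herpud1 and Cebpb also passed in dDG, at 0.32 (edgeR adjusted p 0.0219) and 0.48 (0.0152). For none of the 4 did the interaction among regions pass (smallest edgeR adjusted p 0.537, for Cebpb). The transfer RNA synthetases, a broad set of ATF4 targets, passed in 0 of 96 tests, where Lars had the smallest p (0.0448 in CER, edgeR adjusted 0.33). The list of eIF2 kinases with Eif2s1, the subunit they phosphorylate, held 5 genes, and 3 were tested, Eif2s1, Eif2ak1 and Eif2ak4. These passed in 0 of 24 tests, where Eif2s1 had the smallest p (0.039 in dCA1, edgeR adjusted 0.324). The remaining kinases of the list entered no test, so nothing is read for them. With the dentate covariate Eif2s1 in dCA1 was at 0.49 and passed (edgeR adjusted p 0.0416).

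**Figure D4:**
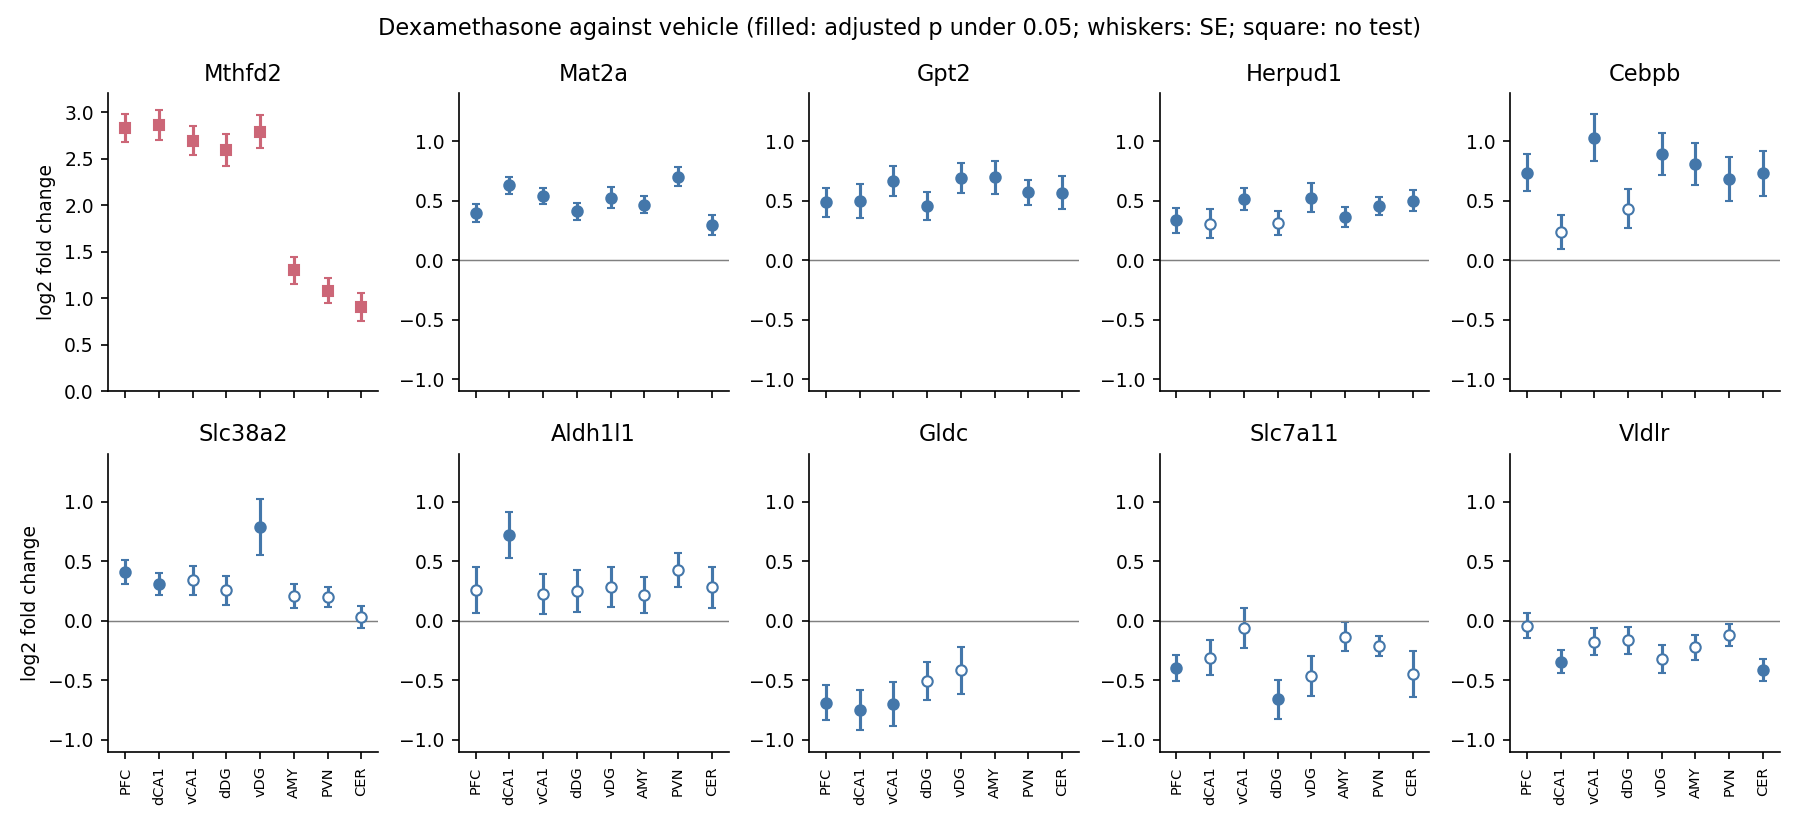
Log2 fold change of dexamethasone against vehicle (vertical axes, whiskers are SE) in the 8 regions for Mthfd2 (squares, no test, own scale) and 9 genes of the pathway lists (circles, filled where the adjusted p was under 0.05, absent where the gene was too low to be tested). Mat2a and Gpt2 passed in all 8 regions and Gldc in PFC, dCA1 and vCA1.

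Among 7923 genes, the 5 with regional changes most like those of Mthfd2 were Map6d1 and Jdp2 (r = 0.97 each), and Nktr, Prom1 and B230334C09Rik (r = 0.96 each), as Pearson's r over 8 regions that share animals. Likeness of pattern did not mean likeness of direction. Map6d1 had negative log2 fold changes throughout, from -0.41 to -0.25 in PFC, dCA1, vCA1, dDG and vDG and from -1.18 to -0.97 in AMY, PVN and CER. Jdp2, a factor of the AP-1 family, was at 0.28 to 0.59 in the first 5 regions and at -0.28 to -0.09 in the other 3. Prom1, a membrane glycoprotein gene, was at 0.43 to 0.74 and at 0.10 to 0.19, and Nktr spanned only 0.15 in all. Of the members, Asns had r = 0.63 (579th of 7923), Atf4 -0.31, Atf5 -0.53, Psph -0.54 and Psat1 -0.86. The values of Psat1 thus ran opposite to those of Mthfd2 over regions, within changes of -0.18 to 0.06 that did not pass. The interaction among regions did not pass for Psat1 either (F = 0.70, unadjusted edgeR p 0.671). Without the libraries with Gabra6, Jdp2, Map6d1 and Prom1 remained among the 5, with Arc and Per3 as the others, and r was 0.55 for Asns and -0.81 for Psat1.

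Markers of cell types moved with treatment in part. Of all genes tested, 2.33% to 3.9% rose and 1.29% to 2.28% fell, by region. Of 32 tests of endothelial markers, 16 passed as falls, 2 in every region, and their summed median level in PFC was 370 CPM in vehicle and 269.9 in dexamethasone libraries. Microglial markers passed as falls in 8 of 50 tests, 1 gene in every region. Astrocyte markers rose in 7 of 64 tests, 1 of the 8 markers in every region but dDG, and fell in 1. Their summed level in PFC ranged from 6424 to 8601 CPM in vehicle libraries, with a median of 6995. In dexamethasone libraries of PFC it ranged from 5882 to 7434 CPM, with a lower median of 6648. Markers of cortex fell in 5 of 25 tests, 1 in each of dCA1, vCA1, dDG, vDG and AMY, and rose in 1, in PFC. Dentate markers rose in 2 of 38 tests, both in vCA1, and fell in 4, 1 in each of dCA1, AMY, PVN and CER. Their summed median level was 210.1 CPM in vehicle and 323 CPM in dexamethasone libraries of vCA1, and 1206 and 866 CPM in those of dCA1. With the dentate covariate Mthfd2 was at 2.68 in vCA1 and 2.71 in dCA1, and 0 of the 5 other members tested passed in either. Oligodendrocyte and choroid plexus markers each gave 1 fall, of 48 and 15 tests. Neuronal markers passed in 0 of 48 tests, those of CA1 and amygdala in 0 of 28, of cerebellum in 0 of 13 and of hypothalamus in 0 of 9. With the replicate block, falls of astrocyte markers were 4, of oligodendrocyte markers 3, of microglial markers 9, of dentate markers 5 and of cortical markers 6. The added dentate fall was that of Stxbp6 in dCA1, at -0.49 (edgeR adjusted p 0.00647). Rises of cortical markers were 3, of dentate markers 3 and of hypothalamic markers 1, and the choroid plexus list gave 1 rise and 0 falls. Of all genes, 4.65% to 8.02% passed with this block, by region, against 3.7% to 6.18% without it. Beyond the dentate covariate, the part of these shifts in the values above was not tested.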

How the data were processed

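The deposited table holds read counts for 27998 genes in 235 libraries, made with a 3′ kit with unique molecular identifiers. Per the submitters' processing notes, FastQC 0.11.4, cutadapt, UMI-tools 0.5.4, STAR 2.6.0a and featureCounts 1.6.4 were named, with mm10 as the build. The deposited tables of log2-scale variance-stabilised values list 228 of the libraries and served only as an alternative in the correlations.

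Counts were tested in each region with edgeR 4.0.16 (limma 3.58.1, R 4.3.3; filterByExpr, TMM factors, quasi-likelihood F test, Benjamini-Hochberg adjustment over all genes tested, threshold 0.05). The interaction of region and treatment and the level among regions in vehicle libraries were tested likewise over all regions. Levels are CPM on TMM factors over 235 libraries. Intervals are at 95%. Correlations used 100000 permutations in scipy 1.17.1, adjusted over 43 pairs. DESeq2 1.42.0, other filters and factors, covariates, blocks and left-out libraries were the alternatives. The fits were checked on simulated counts.

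Members and lists were chosen with earlier results of these data known. Named genes are the members, the 5 genes with regional changes most like those of Mthfd2, and from each list up to 4 genes past the threshold in the largest number of regions, or the gene with the smallest p where none passed. Mthfd2l and Mthfd1 are named besides, as the closest relatives of Mthfd2. Each library of a region came from another animal. The same animal gave up to 8 libraries by the labels, which pairs samples across regions, and deviations of the same animal in different regions had a median correlation of 0.02. Within a region, the libraries of the same number in both arms share the plate in 115 of 115 pairs and the date of punching in 109 by the labels, so the numbers pair the arms, and a fit with the number as a block was an alternative. Their deviations from the group means had a median correlation of 0.04 to 0.15 by region, with 1 to 6 of 13 to 15 best with their own number. Positions are those of the count table's genes. Of the 27645 that GENCODE M21 also holds, 99.9% overlapped their span there on GRCm38. Promoters are from RefSeq on GRCm38.p6.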

Additional observations from a re-analysis of the deposited data

How the results depend on the processing

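The log2 fold change of Mthfd2 kept its direction under every alternative run, from 2.80 to 2.85 in PFC, 2.71 to 2.89 in dCA1, 2.66 to 2.75 in vCA1, 2.54 to 2.61 in dDG, 2.72 to 2.94 in vDG, 1.26 to 1.31 in AMY, 1.07 to 1.09 in PVN and 0.90 to 0.93 in CER. The count of other members past the threshold was 0 in each region under every alternative run. Of all genes, 279 passed in vCA1 with the dentate level as a covariate, against 497, and 543 in dDG with the replicate block, against 316, and the cause was not tested. Beside the values given with the results, the replicate block changed no call of a member in a region or of a named list gene. By Spearman's rho, 1 of the 5 genes most like Mthfd2 was shared, Prom1, and without the libraries with Gabra6, 3. Without those libraries 0 of the 43 correlations passed. Leaving out libraries with a RIN under 4 or with at least 10 counts of Gabra6 was chosen after seeing the data, as was the dentate covariate for the list genes. Depth limits Shmt2, Phgdh and Aldh1l2, with group means of 4.47 to 7.85, 3.27 to 6.00 and 2.80 to 8.00 counts per library, and Mthfd1l in the 5 regions where it was not tested, with 5.43 to 8.53.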
